A study of Mus musculus with 6 samples.

Results

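The MHC class I antigen presentation genes described here are 10 genes, H2-K1, H2-D1, B2m, Tap1, Tap2, Tapbp, Psmb8, Psmb9, Erap1 and Nlrc5, taken by gene name from the 54532 genes of the deposited table. All 10 were found and all 10 passed the filter on low counts, together with 15449 genes in all. The counts came from bulk RNA-Seq of liver from 3 gSpns1-cKO and 3 control mice on the C57BL/6 background, with 1 library per liver. The gSpns1-cKO mice were Spns1 fl/fl mice carrying Rosa26Cre-ERT2, a Cre recombinase that is active after tamoxifen in cells of the whole body, and they received 50 mg/kg of tamoxifen by intraperitoneal injection on postnatal days 11, 13 and 15, which deletes exon 3 of Spns1. Spns1 encodes a lysosomal transporter of lysolipids. The methods use Spns1 fl/fl littermates as controls, whereas the labels call the control livers wild type, and neither the age at harvest nor a tamoxifen treatment of the controls is given in the sources used here. The comparison asks how liver transcripts differed after postnatal loss of SPNS1.

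MHC class I molecules show peptides from inside the cell to CD8 T cells and are inspected by NK cells. The proteasome cuts proteins into peptides, and under interferon its catalytic subunits are replaced by those of the immunoproteasome, Psmb8 and Psmb9 among them. TAP1 and TAP2 form the pump that carries the peptides into the endoplasmic reticulum, ERAP1 trims them there, tapasin (Tapbp) holds an empty class I molecule at the pump until a peptide binds, and the finished molecule of heavy chain (H2-K1 or H2-D1), beta-2-microglobulin (B2m) and peptide goes to the cell surface. NLRC5 is the transactivator that drives most of these genes from a shared promoter module bound by RFX, CREB/ATF and NF-Y factors, beside sites for NF-kB and interferon regulatory factors. In liver nearly all cell types carry class I, with high levels on endothelial and immune cells.

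The promoters show which short motifs some of the members share, and those of the heavy chains, of B2m and of Tap1 are printed as examples with matches. For Tap2 and Nlrc5 no promoter was given in the sources used here. Each is the 250 bases before the gene's first listed RefSeq start in GRCm38.p6, 5′ to 3′ on the gene's strand. The windows are chr17:34000348-34000597 on the minus strand for H2-K1, chr17:35262844-35263093 on the plus strand for H2-D1, chr2:122147437-122147686 on the plus strand for B2m and chr17:34187306-34187555 on the plus strand for Tap1. Capitals mark matches on either strand to an interferon regulatory factor core (AANNGAAA), an NF-kB site, a CREB/ATF core (TGACG) and an NF-Y box (CCAAT).
H2-K1: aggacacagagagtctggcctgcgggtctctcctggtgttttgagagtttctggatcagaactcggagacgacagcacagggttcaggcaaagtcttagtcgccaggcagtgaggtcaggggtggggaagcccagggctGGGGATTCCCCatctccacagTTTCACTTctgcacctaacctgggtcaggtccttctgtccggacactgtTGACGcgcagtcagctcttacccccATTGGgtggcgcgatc
H2-D1: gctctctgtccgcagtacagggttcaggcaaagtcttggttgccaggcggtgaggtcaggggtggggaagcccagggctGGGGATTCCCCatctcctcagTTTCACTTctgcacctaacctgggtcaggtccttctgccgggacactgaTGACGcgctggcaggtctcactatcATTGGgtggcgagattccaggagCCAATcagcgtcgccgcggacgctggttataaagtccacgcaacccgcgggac
B2m: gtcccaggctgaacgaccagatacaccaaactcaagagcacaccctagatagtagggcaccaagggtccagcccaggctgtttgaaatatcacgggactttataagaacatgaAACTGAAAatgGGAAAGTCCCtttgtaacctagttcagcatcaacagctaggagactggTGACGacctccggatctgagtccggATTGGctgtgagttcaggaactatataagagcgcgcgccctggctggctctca
Tap1: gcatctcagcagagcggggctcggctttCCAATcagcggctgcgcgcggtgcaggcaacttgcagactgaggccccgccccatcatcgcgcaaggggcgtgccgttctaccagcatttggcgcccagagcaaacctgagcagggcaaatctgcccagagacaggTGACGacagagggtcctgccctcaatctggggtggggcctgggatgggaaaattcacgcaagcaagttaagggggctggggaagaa

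In both heavy chain promoters the matches come in the same order, an NF-kB match in which 2 readings overlap, then the interferon regulatory factor core, TGACG and CCAAT. Measured from its first base to the start, the interferon regulatory factor core lies 90 bases upstream in H2-K1 and 150 in H2-D1. The other shared matches are shifted alike, at 111 and 171 for NF-kB, 41 and 101 for TGACG and 16 and 76 for CCAAT. The distances thus depend on the start listed for each gene, while the spacing between these matches is the same. Where the windows align, 161 of 177 positions (91%) are identical. Of the 8 members with a window, 3 (H2-K1, H2-D1 and B2m) held the interferon regulatory factor core, against 21.3% of 32536 windows of the same length, and the same 3 held an NF-kB match, against 3.92%. CCAAT was found in 6 members, against 33.8%, and TGACG in 5, against 17.9%. The interferon-activated site TTCNNNGAA was found in 1 member, Psmb8, against 7.04%, and Erap1 had no match to any of these motifs. For H2-D1, Tapbp, Psmb8, Psmb9 and Erap1 the deposited coordinates place the 5′ end of the gene upstream of the window. The windows of those genes thus lie inside the gene as it was counted, and another start would give another window. Tap1 and Psmb9 are transcribed in opposite directions from RefSeq starts 226 bases apart, so their windows overlap. The CCAAT and TGACG matches of Tap1 and Psmb9 are the same bases read on opposite strands, and each is counted for both genes. The heavy chain windows are alike as well. The counts over members thus do not come from independent windows and cannot be weighed directly against the share of all windows. The deposited coordinates instead run from 34187553 for Tap1 and up to 34187764 for Psmb9, so that the genes themselves overlap. These matches describe letters and are not evidence of binding.

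The libraries held between 30350002 and 35295611 counts, in which 3 counts, the floor of detection used here, correspond to 0.0763 to 0.119 CPM. CPM are counts scaled to a common library size, with the library totals adjusted by edgeR's TMM method. The TMM factors were 0.834 to 0.873 in control and 1.16 to 1.18 in gSpns1-cKO livers, so the scaling bears on every difference between the groups. The targeted gene, Spns1 (ENSMUSG00000030741), had 35.9, 50.7 and 34.6 CPM in control livers 1, 2 and 3 and 17.8, 30.6 and 17.8 CPM in gSpns1-cKO livers 1, 2 and 3. Its log2 fold change was -0.87 ± 0.25 (SE, adjusted p = 0.0300 by edgeR), and gSpns1-cKO liver 2 came closest to the controls. With library size alone as the scaling its value was -0.43 (adjusted p = 0.213), and a gene count does not see the loss of a single exon directly. Hepatocyte markers summed to 106969 to 121873 CPM in control and 62511 to 70833 CPM in gSpns1-cKO livers, so both groups had the marker profile of liver.

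H2-K1, Tap1 and Psmb8 were lower in gSpns1-cKO livers and passed the test across all genes. B2m, Psmb9, Tap2, H2-D1 and Tapbp had values below 0 that did not pass, and Nlrc5 and Erap1 had values above 0 that did not pass. In bulk liver fewer cells of a type and less RNA per cell cannot be told apart. Thus 0 of 10 members passed as higher and 3 as lower, by the quasi-likelihood test of edgeR at a Benjamini-Hochberg adjusted p of 0.05. Of all genes tested 41.8% passed, 21.3% as higher and 20.5% as lower, so the members' count of 3 in 10 lies below the share called in all and above the share called as lower. The same 3 were the members whose groups did not overlap, all of them lower in gSpns1-cKO livers, while 54.1% of all genes did not overlap, 27.1% with gSpns1-cKO livers higher and 26.9% with them lower. The median log2 fold change was -0.38 over the members and 0.01 over all genes tested. At an unadjusted p under 0.05 the members counted 0 as higher and 5 as lower, and DESeq2 called 0 as higher and the same number, 5, as lower. The count of 3 fell to 1 when control liver 2, gSpns1-cKO liver 2 or gSpns1-cKO liver 3 was left out and rose to 6 without gSpns1-cKO liver 1. Scaled by library size alone, 0 members passed as lower and 2, Nlrc5 and Erap1, as higher, where 53.5% of all genes passed, 47.2% as higher and 6.28% as lower.

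H2-K1 (ENSMUSG00000061232, chromosome 17, 33996017 to 34000333, minus strand) encodes the classical heavy chain H-2K. Its level was 1900, 2260 and 2286 CPM in control livers 1, 2 and 3 and 1502, 1166 and 1249 CPM in gSpns1-cKO livers 1, 2 and 3. Every gSpns1-cKO liver was below every control liver. The mean was 2149 ± 216 CPM (SD, n = 3) in control and 1306 ± 175 CPM in gSpns1-cKO livers, a ratio of 0.608. The log2 fold change was -0.72 ± 0.16 (SE, adjusted p = 0.00583 by edgeR), and it stayed past the threshold in 12 of 13 alternative analyses, with adjusted p from 7.6e-06 to 0.165. The exception was library size alone, where the value was -0.27. This was the only member that passed at 0.01.

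H2-D1 (ENSMUSG00000073411, chromosome 17, 35262730 to 35267499, plus strand) encodes the other classical heavy chain of this strain, H-2D. It had 665, 889 and 941 CPM in the control livers and 856, 686 and 707 CPM in the gSpns1-cKO livers. The groups overlapped, with control liver 1 the lowest of the 6. The log2 fold change was -0.15 ± 0.17 (SE, 95% interval -0.53 to 0.23, adjusted p = 0.513 by edgeR), and it passed in 0 of 13 alternatives. Its direction depended on the scaling, with a value of 0.30 under library size alone.

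The heavy chains were also set against each other within each liver, a ratio that needs no scaling between libraries. Counts of H2-D1 per kb were 0.354, 0.398 and 0.416 of those of H2-K1 in control livers and 0.576, 0.595 and 0.572 of them in gSpns1-cKO livers. The groups did not overlap, and the ratio was 0.58 ± 0.072 (SE) higher on the log2 scale in gSpns1-cKO livers. The exact two-sided permutation test gave p = 0.1, the smallest that 3 livers against 3 allow, and the ratio was chosen after its values were seen. These genes resemble each other in sequence, yet the annotated transcripts of the pair shared 0 stretches of 100 bases. Stretches shared with any other gene made up 0.957% of the 100-base stretches of H2-K1, with H2-Q10 as the gene sharing most, and 3.59% of those of H2-D1. When the counts of both genes were summed into a single feature, the log2 fold change was -0.54 ± 0.17 (SE, adjusted p = 0.0281 by edgeR). That sum passed in 6 of 13 alternatives, with values from -0.65 to -0.09 and adjusted p from 0.00154 to 0.655.

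B2m (ENSMUSG00000060802, chromosome 2, 122147686 to 122153083, plus strand) encodes the light chain that every classical heavy chain needs to reach the surface. It had 1594, 1404 and 1891 CPM in the control livers and 1478, 1020 and 1136 CPM in the gSpns1-cKO livers. Livers 2 and 3 of the gSpns1-cKO group lay below all controls, and liver 1 lay among them. The log2 fold change was -0.43 ± 0.19 (SE, 95% interval -0.84 to -0.017), which did not pass after adjustment (adjusted p = 0.0877 by edgeR). It passed in 3 of 13 alternatives and was 0.018 under library size alone. Summed counts of H2-K1 and H2-D1 per kb were 0.532, 0.742 and 0.565 of those of B2m in control livers and 0.528, 0.602 and 0.570 of them in gSpns1-cKO livers. This ratio of heavy to light chain transcripts overlapped between the groups, with a log2 difference of -0.10 ± 0.16 (SE, p = 0.8, exact two-sided permutation test). With the class I heavy chain genes of the lists added to the sum, H2-Q10 among them, the ratio to B2m was 1.07, 1.39 and 1.05 in control and 0.945, 0.997 and 0.943 in gSpns1-cKO livers. In that form the groups did not overlap, and the log2 difference was -0.27 (p = 0.1, the smallest possible, exact permutation test).

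**Figure D1:**
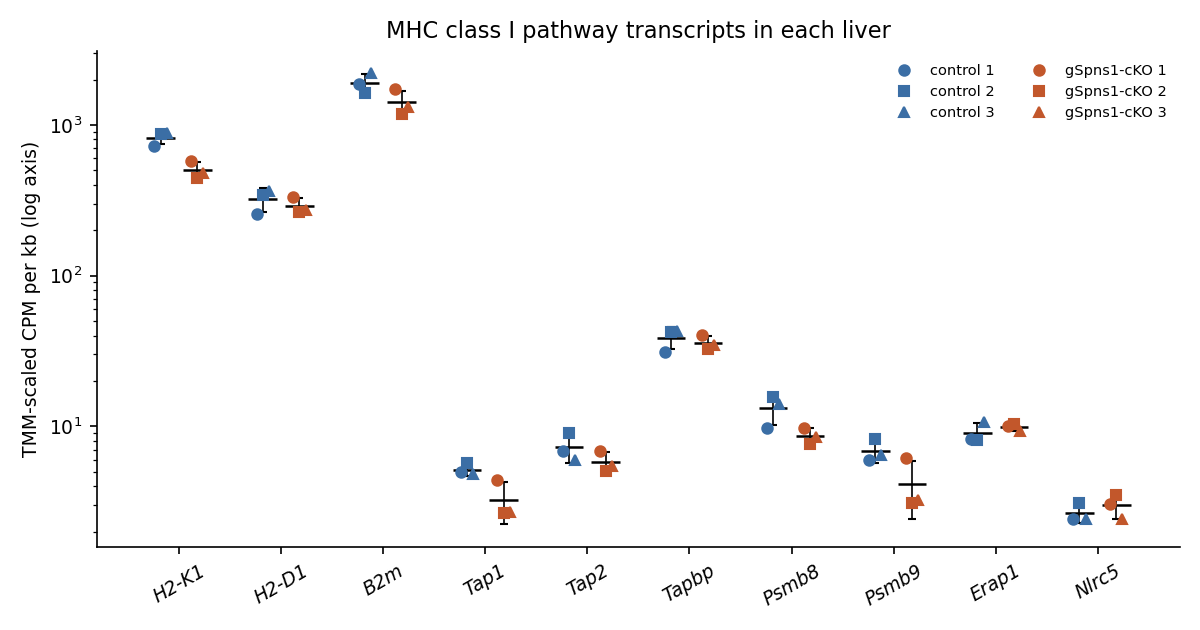
Level of each member in each liver, in TMM-scaled CPM per kb of gene on a log axis, with control livers in blue and gSpns1-cKO livers in orange. Horizontal bars are means and error bars are SD (n = 3). H2-K1, Tap1 and Psmb8 are the members whose groups do not overlap.

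The plot of levels by liver also shows the order of the members, which can be read only per length of gene. In control livers B2m stood highest at 1895 ± 286 CPM per kb (SD, n = 3), followed by H2-K1 at 824 ± 82.7 and H2-D1 at 322 ± 56.7. The chains of the molecule itself were thus the most abundant of the members, ahead of its loading machinery. Tapbp followed at 38.8 ± 6.47 CPM per kb, and the other 6 members lay between 13.2 ± 3.01 (Psmb8) and 2.65 ± 0.374 (Nlrc5). Among control livers the neighbours Psmb8 and Erap1, Erap1 and Tap2, and Tap2 and Psmb9 had mean ± SD ranges that met. In gSpns1-cKO livers the order was the same except that Erap1 (9.90 ± 0.561 CPM per kb) stood above Psmb8 (8.65 ± 1.09). There the mean ± SD ranges of Erap1 and Psmb8, Tap2 and Psmb9, Psmb9 and Tap1, and Tap1 and Nlrc5 met.

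Tap1 (ENSMUSG00000037321, chromosome 17, 34187553 to 34197225, plus strand) encodes a subunit of the peptide pump. It had 27.0, 31.2 and 26.5 CPM in the control livers and 24.1, 14.5 and 14.7 CPM in the gSpns1-cKO livers. All gSpns1-cKO values were below all control values, with gSpns1-cKO liver 1 close to the controls. The mean fell from 28.3 ± 2.57 to 17.8 ± 5.49 CPM (SD, n = 3), and the log2 fold change was -0.67 ± 0.20 (SE, adjusted p = 0.0219 by edgeR). Tap1 passed in 9 of 13 alternatives (adjusted p from 6.18e-06 to 0.339). It missed the threshold without control liver 2 (adjusted p = 0.0768), gSpns1-cKO liver 2 (0.0588) or gSpns1-cKO liver 3 (0.0747), and under library size alone, where the value was -0.23.

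Tap2 (ENSMUSG00000024339, chromosome 17, 34203527 to 34216321, plus strand), its partner in the pump, ranged from 22.8 to 34.0 CPM in control and from 19.0 to 26.1 CPM in gSpns1-cKO livers. The ranges overlapped, and the log2 fold change of -0.33 ± 0.17 (SE, 95% interval -0.71 to 0.048) did not pass (adjusted p = 0.146 by edgeR). It passed in 2 of 13 alternatives, among them the analysis without gSpns1-cKO liver 1 (-0.48, adjusted p = 0.0407), and stood at -0.16 without control liver 2. Tapbp (ENSMUSG00000024308, chromosome 17, 33915899 to 33929288, plus strand) ranged from 103 to 142 CPM in control and from 108 to 132 CPM in gSpns1-cKO livers. Its log2 fold change was -0.12 ± 0.14 (SE, 95% interval -0.44 to 0.20, adjusted p = 0.540 by edgeR), and it passed in 0 of 13 alternatives. Both genes changed direction with the scaling, to 0.11 for Tap2 and 0.33 for Tapbp under library size alone.

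Psmb8 and Psmb9 are the interferon-inducible catalytic subunits that take the places of Psmb5 and Psmb6 in the immunoproteasome. Psmb8 (ENSMUSG00000024338, chromosome 17, 34197721 to 34201454, plus strand) had 26.9, 42.7 and 38.5 CPM in the control livers and 26.8, 20.9 and 23.2 CPM in the gSpns1-cKO livers. The groups did not overlap, but control liver 1 and gSpns1-cKO liver 1 nearly met. The log2 fold change was -0.61 ± 0.17 (SE, adjusted p = 0.0181 by edgeR) and passed in 8 of 13 alternatives (adjusted p from 1.67e-05 to 0.433). It missed the threshold without control liver 2 (adjusted p = 0.0667), control liver 3 (0.0626), gSpns1-cKO liver 2 (0.0562) or gSpns1-cKO liver 3 (0.0601), and under library size alone, at -0.16.

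Psmb9 (ENSMUSG00000096727, chromosome 17, 34181988 to 34187764, minus strand) had 21.8, 29.97 and 23.6 CPM in the control livers and 22.7, 11.3 and 11.8 CPM in the gSpns1-cKO livers. Here gSpns1-cKO liver 1 lay within the control range while livers 2 and 3 lay well below it. Psmb9 had a log2 fold change of -0.72 ± 0.29, as large as that of H2-K1, and did not pass (adjusted p = 0.0862 by edgeR). Without gSpns1-cKO liver 1 the value was -1.12 (adjusted p = 0.000293), and it passed in 4 of 13 alternatives. By the GENCODE M21 annotation, Psmb9 and Tap1 overlap by 212 exonic bases on opposite strands. No strand setting of the counting is given in the sources used here, so reads in that stretch may have been left out or shared.

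The constitutive subunits that the immunoproteasome replaces were lower as well. Psmb5 had a log2 fold change of -0.56 ± 0.13 (SE, adjusted p = 0.00596 by edgeR), Psmb6 one of -0.74 ± 0.10 (adjusted p = 0.000389) and Psmb7 one of -0.58 ± 0.099 (adjusted p = 0.00128). The third inducible subunit, Psmb10, which pairs with Psmb7, stood at -0.08 ± 0.13 and did not pass (adjusted p = 0.631). With library size alone Psmb6 still passed as lower (-0.30, adjusted p = 0.0329), Psmb5 (-0.11) and Psmb7 (-0.13) did not, and Psmb10 passed as higher (0.36, adjusted p = 0.0390). Set per kb against its constitutive counterpart in the same liver, Psmb8 was at 0.0721, 0.114 and 0.113 of Psmb5 in control livers and at 0.0921, 0.0916 and 0.105 in gSpns1-cKO livers. Neither this ratio (log2 difference -0.02 ± 0.23, SE) nor that of Psmb9 to Psmb6 (-0.04 ± 0.36) separated the groups, with p = 1 and 0.9 in exact two-sided permutation tests. The ratio of Psmb10 to Psmb7 was 1.23, 1.83 and 1.61 in control livers and 2.14, 2.33 and 2.08 in gSpns1-cKO livers. Those groups did not overlap, with a log2 difference of 0.51 ± 0.18 (SE, p = 0.1, the smallest possible, exact permutation test, and 0.3 after Benjamini-Hochberg adjustment over the 3 ratios).

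**Figure D2:**
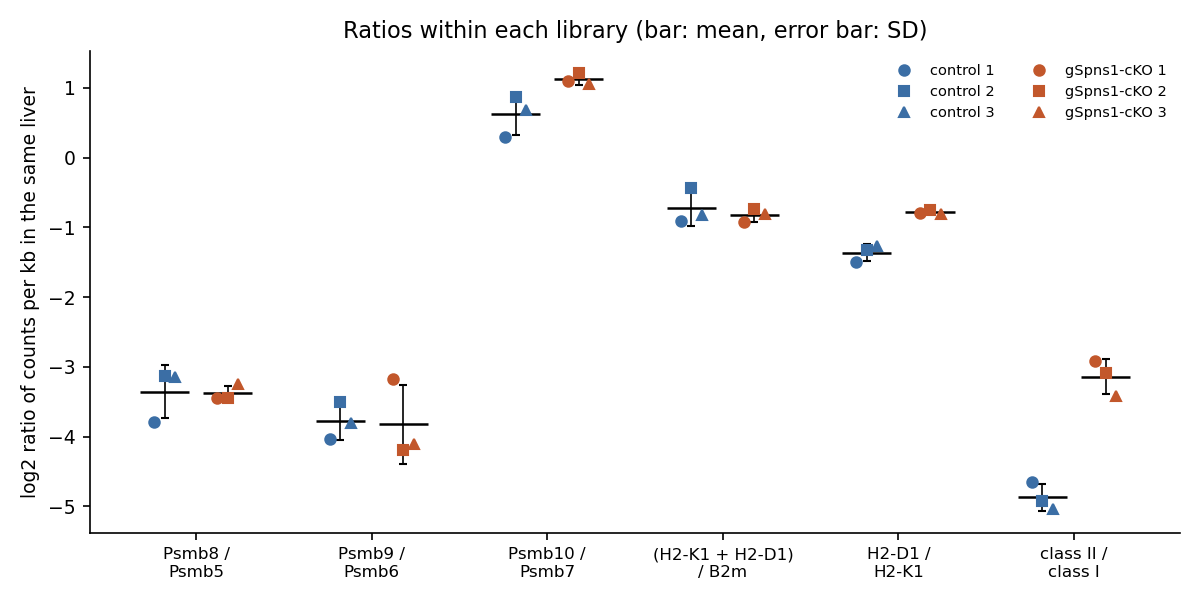
Log2 ratios of counts per kb within each liver, with control livers in blue and gSpns1-cKO livers in orange, bars at the mean and error bars of 1 SD (n = 3). Class II stands for H2-Aa, H2-Ab1 and H2-Eb1 summed and class I for H2-K1 and H2-D1 summed. The groups separate for Psmb10 over Psmb7, H2-D1 over H2-K1 and class II over class I and overlap for the other 3 ratios.

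Erap1 (ENSMUSG00000021583, chromosome 13, 74639568 to 74693201, plus strand) encodes the aminopeptidase that trims peptides in the endoplasmic reticulum. It had 60.4, 59.5 and 77.6 CPM in the control livers and 72.8, 75.7 and 67.6 CPM in the gSpns1-cKO livers. The groups overlapped, and the log2 fold change of 0.13 ± 0.12 (SE, 95% interval -0.14 to 0.41) did not pass (adjusted p = 0.425 by edgeR). Erap1 shares 834 exonic bases with Cast on the opposite strand, which had 1062 to 2395 counts in these libraries, so its level is less certain.

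Nlrc5 (ENSMUSG00000074151, chromosome 8, 94434356 to 94527272, plus strand), the class I transactivator, had 20.7, 26.1 and 20.6 CPM in the control livers and 25.9, 29.7 and 20.5 CPM in the gSpns1-cKO livers. The groups overlapped, with a gSpns1-cKO liver at each end of the range. Its log2 fold change was 0.17 ± 0.15 (SE, 95% interval -0.17 to 0.51, adjusted p = 0.396 by edgeR). Under library size alone both genes passed, at 0.62 for Nlrc5 (adjusted p = 0.00892) and 0.58 for Erap1 (adjusted p = 0.00222). Nlrc5, whose product acts on the promoters above, and H2-K1 thus had values of opposite sign under TMM and under library size alone.

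The scaling sets where 0 lies for all members at once. The median of all genes was 0.01 under TMM, 0.14 under upper-quartile scaling and 0.46 under library size alone. Since a scaling shifts all genes by about the same amount, the place of a member relative to that median hardly depends on it, and 8 of 10 members lay below it and Nlrc5 and Erap1 above. With upper-quartile scaling H2-K1, Tap1 and Psmb8 passed as lower, as under TMM, and Tapbp moved to 0.012.

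**Figure D3:**
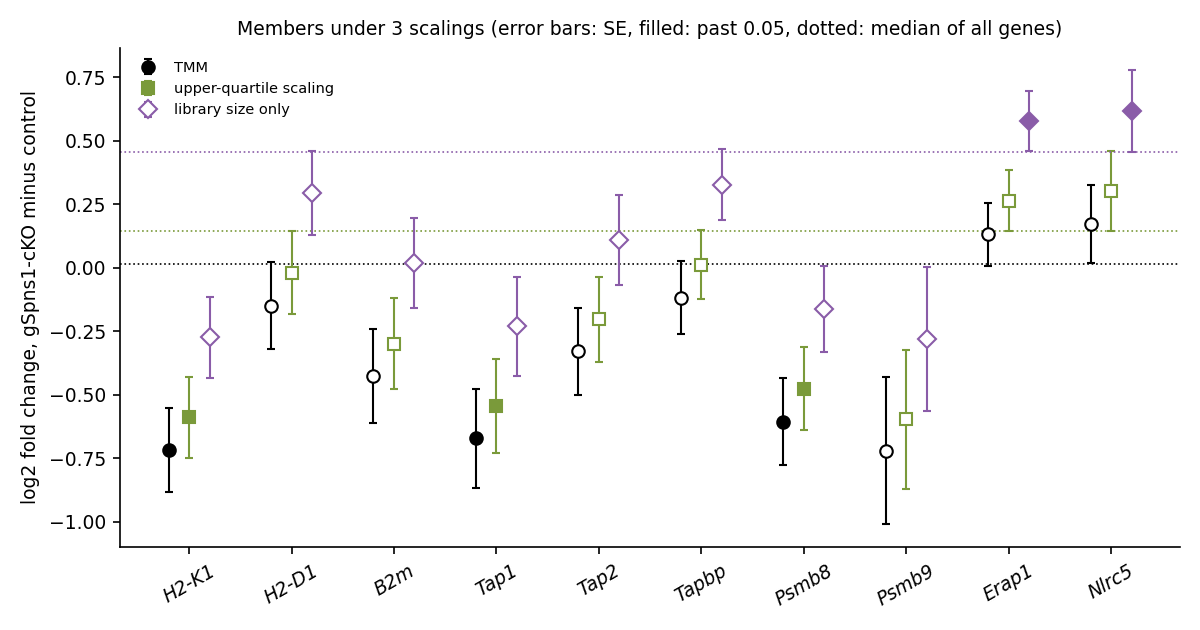
Log2 fold change of each member, gSpns1-cKO minus control, under TMM (black), upper-quartile scaling (green) and library size alone (purple), with SE bars. Filled symbols passed at 0.05 and dotted lines give the median of all genes under each scaling. The 3 sets of points are shifted against each other by about the same amount, with Nlrc5 and Erap1 above the median and the other 8 members below it.

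In the gSpns1-cKO group the same livers were high or low for most members, where liver 1 had the highest CPM for 8 of 10 members and liver 2 the lowest for 8. The control group was more mixed, with livers 1, 2 and 3 lowest for 5, 2 and 3 members and highest for 0, 5 and 5. These ranks were not counted over all genes, so the pattern is not shown to be particular to the members. Outside all lists, 7887 genes with at least 10 CPM on average were searched for the pattern over the 6 livers most like the members' mean. The highest were Trim12c (Pearson r = 0.986), Irf7 (0.985) and C2cd2l (0.984). These correlations were picked as the highest of that search. They rest on 6 points that share the libraries, the scaling and the group difference. Irf7, an interferon-induced transcription factor, was counted 722, 1285 and 1223 times in control livers 1, 2 and 3 and 1186, 781 and 731 times in gSpns1-cKO livers 1, 2 and 3, and did not pass (log2 fold change -0.69 ± 0.31, adjusted p = 0.128 by edgeR).

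Of the members, 7 lie on chromosome 17 in or beside the MHC. Between H2-K1 and H2-D1, from 33996017 to 35267499, the table lists 135 genes, of which 71 were tested. Leaving out the 6 members in that stretch, 14 of 65 genes passed as higher and 18 as lower (49.2%), against 41.8% of all genes, and their median was -0.08.

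Other genes of the same route were read from lists, 130 genes of which 119 were tested, and 40 of them passed as higher and 33 as lower (median 0.08). Over all genes tested 21.3% passed as higher and 20.5% as lower, the shares to set beside this and each list below. For the counts with library size alone, the shares to set beside them are 47.2% as higher and 6.28% as lower. Of the 6 chaperones that fold and load class I, 0 passed as higher and 2 as lower, Calr (-0.83 ± 0.17, adjusted p = 0.00341 by edgeR) and Pdia3 (-0.60 ± 0.16, adjusted p = 0.0139), the calreticulin and ERp57 of the loading complex. The 14 subunits of the constitutive 20S proteasome counted 0 as higher and 11 as lower, with a median of -0.44. The 4 partners of the immunoproteasome counted 0 as higher and 3 as lower, namely the assembly factor Pomp (-0.69) and the PA28 activator subunits Psme1 (-0.36) and Psme2 (-0.36). These calls hung on the scaling, since with library size alone 2 chaperones passed as higher and 0 as lower, and 1 of the 20S subunits passed as lower. Of 7 other peptidases, 0 passed as higher and 2 as lower, the cytosolic Blmh (-0.90) and Lap3 (-0.74), with a median of 0.059 over the list, whereas 5 were higher and 1 lower with library size alone.

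Heavy chains other than H2-K1 and H2-D1 went both ways, with 4 of 13 tested genes higher and 3 lower, or 6 and 1 with library size alone. H2-Q10, which encodes a heavy chain that hepatocytes secrete, averaged 3650.1 ± 154 CPM in control and 1685 ± 524 CPM in gSpns1-cKO livers (SD, n = 3) and fell by 1.11 ± 0.21 on the log2 scale (SE, adjusted p = 0.00235 by edgeR). It had 97754, 113985 and 95451 counts in control and 82317, 51592 and 55943 in gSpns1-cKO livers, with 8.01% of its 100-base stretches shared with other genes. H2-M2, which shares none, had 2, 3 and 2 counts in control and 185, 117 and 170 in gSpns1-cKO livers (adjusted p = 8.52e-06 by edgeR). The control counts were at or under the floor, so no fold is given. H2-Q2 also passed as higher (1.29 ± 0.31, adjusted p = 0.00810). The class I-like molecules had 3 of 9 higher and 4 lower, with Cd1d1 (-1.17), which presents lipids to NKT cells, below. Of the 3 that passed as higher, the 2 with the largest values had few counts. Ulbp1 (1.78), an NKG2D ligand, had 7, 4 and 10 counts in control and 42, 26 and 31 in gSpns1-cKO livers. Procr (1.496), the endothelial protein C receptor, had 14, 10 and 11 counts in control and 42, 30 and 63 in gSpns1-cKO livers.

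Genes upstream of class I expression showed no common direction under TMM. With library size alone 8 transcriptional regulators and 6 interferon signaling genes passed as higher and 0 of either as lower. Under that scaling 47.2% of all genes passed as higher and 6.28% as lower. Of 12 transcriptional regulators 4 passed as higher and 3 as lower, with Irf8 (0.93), Nfkb1 (0.71) and the NF-Y subunit Nfya (0.67) the largest. The 3 that passed as lower, named after their values were seen, were Rfxap (-0.53), Irf2 (-0.49) and Rela (-0.39). Of 10 interferon receptor and signaling genes tested 2 passed as higher, Ifngr1 (1.09) and Jak1 (0.38), and 2 as lower, among them Ifnar2 (-0.57). Irf1, chosen after its values were seen, was at 0.37 (adjusted p = 0.0246 by edgeR). Ifng had 3, 0 and 0 counts in control and 2, 1 and 4 in gSpns1-cKO livers, and Ifnb1 had 0 in all 6, so neither could be tested at this depth. The 17 interferon-gamma-induced GTPases and chemokines counted 10 as higher and 1 as lower (median 0.81), with Gbp8 (2.57), Cxcl10 (2.02) and Gbp2 (1.78) largest. The gene that passed as lower was Iigp1, an interferon-induced GTPase named here after its values were seen, with 207 ± 32.3 CPM in control and 117 ± 29.9 CPM in gSpns1-cKO livers (SD, n = 3, log2 fold change -0.83, adjusted p = 0.00607 by edgeR). The summed level of the list was 299 to 376 CPM in control and 260.4 to 351 CPM in gSpns1-cKO livers. With library size alone the list counted 14 as higher and 0 as lower.

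Genes of class II presentation and of the receptors that sense class I were higher for the most part. Of 9 MHC class II genes tested 7 passed as higher and 0 as lower (median 1.16), with H2-DMb1 (1.46), H2-Aa (1.46) and H2-DMa (1.42) largest. Counts of H2-Aa, H2-Ab1 and H2-Eb1 per kb were 0.0397, 0.0331 and 0.0304 of those of H2-K1 and H2-D1 in control livers and 0.132, 0.118 and 0.0935 in gSpns1-cKO livers. This ratio of class II to class I transcripts was higher in every gSpns1-cKO liver, by 1.73 ± 0.19 on the log2 scale (SE, p = 0.1, exact permutation test, the smallest possible), and was chosen after its values were seen. Of 9 class I receptors tested 6 passed as higher and 0 as lower (median 1.84). Among them Klrd1, the CD94 chain, stood at 2.78 ± 0.41, its partner Klrc2 rose from 2, 3 and 0 to 17, 29 and 12 counts, and Cd8b1, a chain of the CD8 co-receptor, rose from 7, 2 and 2 to 21, 23 and 12. Cross-presentation genes counted 4 of 9 as higher and 2 as lower, with Cybb (2.32), Batf3 (1.91) and Wdfy4 (1.41) largest, all of them genes of myeloid or dendritic cells. With library size alone 6 cross-presentation genes passed as higher and 0 as lower.

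**Figure D4:**
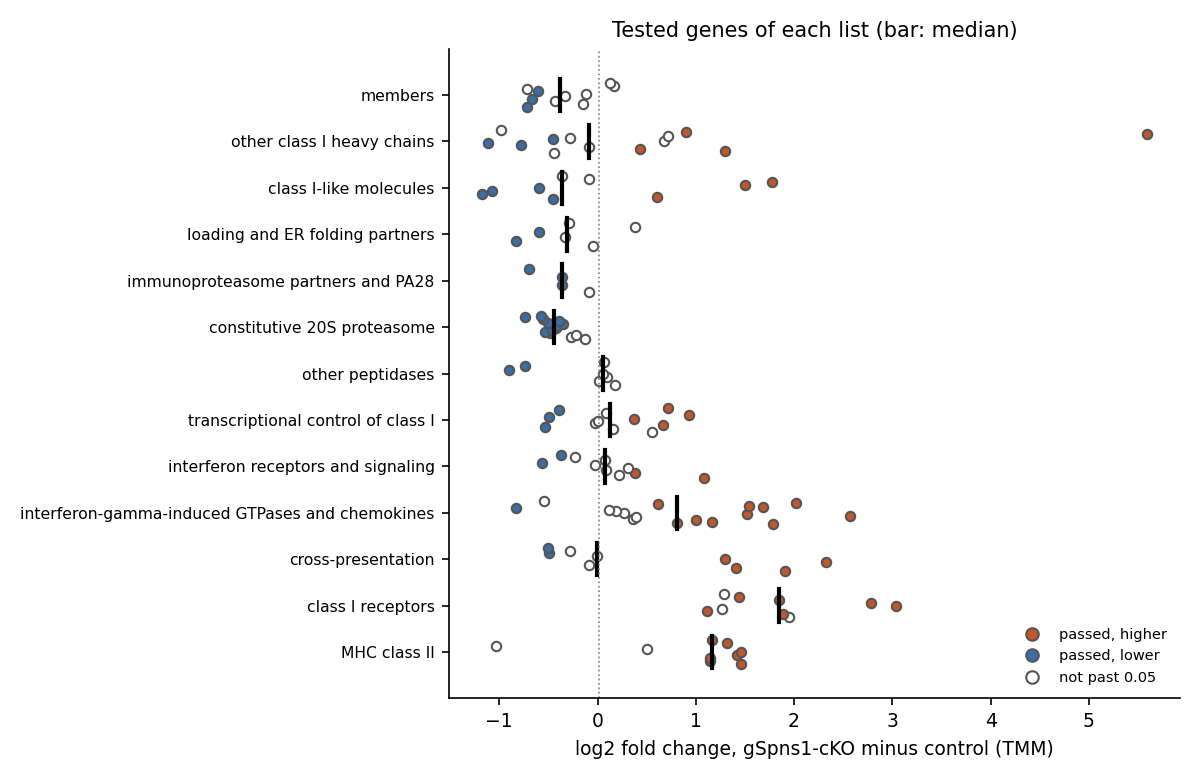
Log2 fold change under TMM, gSpns1-cKO minus control, of each tested gene of the members and of the 12 other lists, orange where it passed as higher, blue where it passed as lower and open otherwise, with a bar at each list's median. The point farthest right is H2-M2, whose fitted value depends on the few control counts. The members have a median of -0.38, MHC class II genes 1.16 and class I receptors 1.84.

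Markers of liver cell types moved with the groups in the same libraries. Of 8 hepatocyte markers 0 passed as higher and 6 as lower (median -0.64), with Serpina1c (-1.998) and Apoa2 (-1.002) largest. All 9 Kupffer cell and macrophage markers passed as higher, led by Marco (3.10) and Lyz2 (2.33), and their summed level was 188 to 307 CPM in control and 739 to 1105 CPM in gSpns1-cKO livers. All 6 cholangiocyte markers (Epcam at 3.11, Cftr with 5, 1 and 2 against 17, 26 and 26 counts), all 5 tested NK cell markers (Gzma at 2.52, Ncr1 with 1, 0 and 0 against 16, 18 and 22 counts) and all 3 tested neutrophil markers (Retnlg at 2.32, S100a8 at 1.46) also passed as higher. Stellate cell markers counted 5 of 7 (Pdgfrb at 1.82, Dcn at 1.57), sinusoidal endothelial markers 6 of 8 (Lyve1 at 1.74, Stab2 at 1.19) and dendritic cell markers 3 of 6 (Itgax at 3.29, Flt3 at 1.96) as higher, with 0 lower in each. Of the other lists, T cell markers had 0 of 7 higher and 1 lower (Cd4 at -1.26), B cell markers 0 of 5 in either direction, and erythroid markers 2 of 3 higher and 1 lower (Alas2 at -3.17, Hba-a1 at 1.16). With library size alone the hepatocyte markers counted 2 as lower. The part of the cell mix in the members' values was not tested.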

How the data were processed

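The authors deposited whole-number counts per gene for each liver, made according to the submitters' processing notes with fastp, HISAT2 2.0.5 and featureCounts 1.5.0-p3 on mm10. The strand setting and annotation release are not given in the sources used here. The authors also deposited FPKM, a signal per group (mean scaled counts), and their own comparison with log2 values, each p-value included. None of these was used. The deposited gene lengths were used for levels per kb. Coordinates were checked against GENCODE M21 (GRCm38), which held 54495 of the genes.

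The counts were tested with edgeR 4.0.16 in R 4.3.3 (filterByExpr by genotype, TMM, robust glmQLFit, glmQLFTest) over all 15449 genes tested, with Benjamini-Hochberg adjustment at 0.05. SE is the log2 fold change over the square root of F. Ratios within livers were compared by exact permutation. Alternatives were DESeq2 1.42.0, limma-voom (limma 3.58.1), library size alone, upper-quartile scaling, 2 filters on low counts, a replicate block, a threshold of 0.01 and leaving out each liver. The 2 ratios chosen after their values were seen were added then.

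Members and lists were chosen with earlier results of these data known. Named genes were the members, Spns1, the subunits in the ratios, the 3 largest changes past the threshold in each list (2 for markers) and the 3 genes most like the members. No batch is given in the labels, and no pair of libraries differed as little as sampling noise. The labels name no separate animal beyond the replicate number, so p-values measure the spread between these samples. Floors cover counting error only. Scripts were tested on simulated data.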

Additional observations from a re-analysis of the deposited data

How the results depend on the processing

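Members counted as lower numbered 3 in the reported analysis, 5 with DESeq2, 6 with the filter of at least 1 count in any library, 1 at a threshold of 0.01, 0 with library size alone and 1 to 6 with a liver left out. Members counted as higher were 0 in each of these except library size alone (2). Library size alone also gave 7289 genes higher and 970 lower in the whole table and 66 higher and 5 lower in the other lists, and turned H2-D1 to 0.30, B2m to 0.018, Tap2 to 0.11 and Tapbp to 0.33. Upper-quartile scaling turned Tapbp to 0.012. Summed H2-K1 and H2-D1 stood at -0.092 with library size alone (adjusted p = 0.655), -0.41 with upper-quartile scaling (adjusted p = 0.0715) and -0.65 to -0.47 with a liver left out (adjusted p 0.00968 to 0.107). With a liver left out, the log2 differences ranged from -0.24 to 0.090 for Psmb8 over Psmb5, from -0.37 to 0.14 for Psmb9 over Psmb6 and from -0.19 to 0.046 for H2-K1 and H2-D1 over B2m, each of them on both sides of 0. With all class I heavy chain genes of the lists summed over B2m the difference was -0.27 (p = 0.1, exact permutation test). Psmb10 over Psmb7 ranged from 0.35 to 0.63. The cause of these changes was not tested.

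The labels tie same-numbered livers by number only, and their deviations from the group means correlated at 0.042, 0.032 and -0.027. Such values cannot show whether same-numbered livers came from littermates or were handled together. With the replicate number as a block the summed heavy chains were at -0.54 (adjusted p = 0.0545). Depth limited the low genes of the lists, such as the NK cell receptors, more than any member, of which the lowest had 434 counts in a library.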
